A study of Mus musculus with 12 samples.

Results

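The 5p arms of the mouse miRNAs numbered miR-6896 to miR-7093 were followed in blood EVs (bEVs). These miRNAs stand next to each other in the miRBase numbering, and most of their hairpins lie at the end of an intron. Members were the rows of the deposited count table whose name runs from miR-6896 to miR-7093 and ends in -5p, chosen by name alone. The rule found 200 of the 1995 features of the table, that is 200 of 1885 miRNAs, and the other 110 features are piRNAs. The table covers 12 serum bEV libraries from Rag1-/- mice, which lack mature T and B cells: 6 from mice that received 10000000 T cells of WT mice intravenously ("T cells" below) and 6 from mice that received medium only ("medium"). All mice were on a C57BL/6 background and male, at the 8 to 12 weeks of age that the methods give in general, and both groups carry the same Rag1 deletion. The donor cells were pan T cells isolated from spleen, so the hosts held donor T cells and no B cells of their own. The bEVs were enriched from serum by differential ultracentrifugation, which also brings down other particles. The labels number the libraries without naming the animals, and p-values measure the spread between these libraries. In bulk bEV RNA, fewer vesicles that carry a miRNA and fewer copies per vesicle cannot be told apart, and every level is relative to the other counts of its library.

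A mirtron is a miRNA whose hairpin is cut out of a pre-mRNA by splicing in place of Drosha, the nuclease that trims most primary miRNA transcripts. The spliced lariat is opened by the debranching enzyme, folds into a hairpin, and is exported and cut by Dicer like other precursors. In a classical mirtron both ends of the hairpin are the ends of the intron. In a tailed mirtron only 1 end is a splice site, and the rest of the intron forms a tail that nucleases trim. In mammals many mirtrons are weakly expressed, and no role is established for most of the miRNAs described here. The mature strand of a miRNA pairs with its targets mainly through its seed, bases 2 to 8.

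A mature sequence was found in RefSeq (GRCm38.p6) for 176 of the 200 members. The sequences below are the 8 most abundant members, written 5′ to 3′ with the seed in capitals. Most of them are rich in guanine, while miR-6936-5p holds more cytosine (42.9%) than guanine (33.3%).
miR-6941-5p: cUGGGGGAcugacggguagcu
miR-6960-5p: cAGGAUGAgaagaguuuggcug
miR-7018-5p: gUGAGCAGacagggaguggugggg
miR-6927-5p: gUGAGGGGauccagcccaggcu
miR-7033-5p: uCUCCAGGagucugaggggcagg
miR-7001-5p: aGGCAGGGugugagcgugagcau
miR-6938-5p: uUGGAGCUagcuccagagagagu
miR-6936-5p: gUGAGCCAcugccgugcccgc

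The 5 members with the lowest p among those with a positive and the 5 among those with a negative fold change of T cells over medium are shown next, in this order, since the account of differences turns on them. Capitals again mark the seed.
miR-7021-5p: aUAGGAGUugauuacagagcaa
miR-6944-5p: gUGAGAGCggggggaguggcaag
miR-6937-5p: uAGCUGUAagggcugggucugugu
miR-7057-5p: cAGGAGAGgacucaaguu
miR-6930-5p: aAGGGGGUgcuugagagguuugg
miR-6956-5p: uGAGUGGGugggacuggccu
miR-6985-5p: uACUGAGGgguggcugcuaugu
miR-6976-5p: cAGGGAAGuugagaggaaaauug
miR-6921-5p: uGAGGGGCaugagguaggaagc
miR-6934-5p: uUGGUGGAgacagcaagggugg

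The 5p arms were rich in guanine. Guanine made up a median of 43.7% of their bases, against 14.3% in the 3p arms of the same number range, 27.3% in the other 5p arms of the table and 23.8% in all other miRNAs. Cytosine was low at 13.6%, while the 3p arms of the same range held 40.9% cytosine and 31.8% uracil. A run of 3 guanines (GGG) occurred in 133 of the 176 members with a sequence, which is 75.6% of them, against 24.8% of all other miRNAs. The seed itself held GGG in 95 members (54.0%) and in 9.81% of all other miRNAs. The median length was 22 bases in members and other miRNAs alike, with members from 18 to 26 bases. The highest guanine content, 66.7%, was that of miR-6931-5p (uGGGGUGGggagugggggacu) and miR-7045-5p (aGCGGGUGggggagggggacu). At the other end, miR-7092-5p (aAAGGCAAacucacagaaucauu), on chromosome X, held 13.0% guanine, below the median of the 3p arms.

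**Figure D1:**
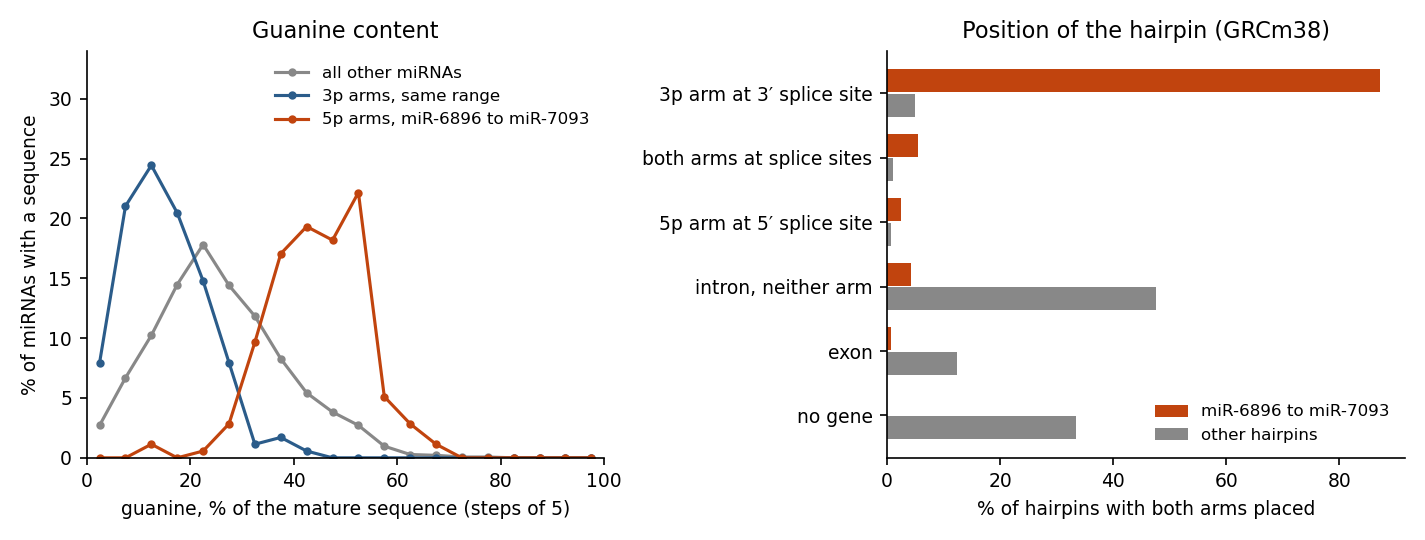
Left, guanine content of the mature sequence (x axis, percent of bases, in steps of 5) against the percent of miRNAs in each step (y axis) for the 176 members with a sequence, the 3p arms of the same range and all other miRNAs; right, percent of hairpins with both arms placed (x axis) by the position of the hairpin in its host gene, for the 164 hairpins of miR-6896 to miR-7093 and for 459 other hairpins of the table. The member curve lies to the right, with a median of 43.7% guanine, and 87.2% of the member hairpins have the 3p arm alone at a splice site against 5.01% of the others.

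Both arms of 164 member hairpins could be placed on GRCm38 with the GENCODE vM21 annotation. All but 1 of them (99.4%) lay inside an intron of a protein-coding gene on the same strand, against 54.2% of 459 other hairpins of the table that lay in any intron. In 143 hairpins (87.2%) the 3p arm alone ended within 2 bases of the 3′ splice site of its intron, with the rest of the intron upstream, and the median length of these introns was 504 bases. Both arms reached the splice sites in 9 hairpins (5.49%), whose introns had a median length of 83 bases, and only the 5p arm did so in 4 (2.44%). Among the other hairpins of the table these shares were 5.01%, 1.09% and 0.654%. The 3′ end of an intron is as a rule a pyrimidine-rich stretch followed by AG, and the 5p arm is the strand that pairs with it. Hairpins at the 3′ splice site thus made up most of the class, and those that fill a whole intron were few. In 7 hairpins neither arm was at a splice site, and miR-7025 overlapped an exon of Pdgfra, a growth factor receptor gene.

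Some hosts are well-known genes. miR-6941 lies in an intron of 1517 bases of Jag2, a Notch ligand, at chr12:112920483-112920541 on the minus strand. miR-7018 fills an intron of 85 bases of Hspg2, the gene of the basement membrane protein perlecan, at chr4:137538286-137538370 on the plus strand. miR-6927 starts at the 5′ splice site of an intron of 88 bases of Mllt6, at chr11:97677060-97677130, and miR-6936 does so in an intron of 66 bases of Sirt7, a deacetylase gene, at chr11:120624823-120624876. The 5p arms of miR-7018, miR-6927, miR-6936 and miR-6944 begin with gugag, the letters that follow the exon at these 5′ splice sites. The remaining abundant members lie in Troap (miR-6960), Pom121 (miR-7033), Cd82 (miR-7001) and Mlh3 (miR-6938), each with the 3p arm at the 3′ splice site; Pom121 encodes a nuclear pore protein, Cd82 a tetraspanin and Mlh3 a mismatch repair protein.

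Library totals ran from 48997 to 130106 counts. The table gives whole numbers for which the sources do not say whether they are reads or UMIs. T cells 2 and medium 3 held no count from 1 to 9, whereas the other 10 libraries did. The 10 most abundant features took 14.8% to 40.9% of the counts in T cell libraries and 10.3% to 24.8% in medium libraries. Red blood cell miRNAs (5 in the list, among them miR-451a and miR-16-5p) took 4.33% to 22.5% with T cells and 3.46% to 13.1% with medium, and lymphocyte miRNAs (3 in the list, among them miR-150-5p) took 1.14% to 1.70% and 0.592% to 1.85%. The list for platelets and myeloid cells, miR-223-3p and miR-191-5p, took 0.988% to 2.16% with T cells and 0.555% to 0.963% with medium, without overlap. That is a raw share summed over 2 features. Taken singly and in CPM after TMM, 0.291% of all tested features separated the groups. The liver miRNAs miR-122-5p and miR-192-5p took 0.180% to 0.273% with T cells and 0.118% to 0.337% with medium. None of these markers was at 0 in every library. Their part in the results was not tested.

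The members were detected almost everywhere. Of the 200 members, 154 had at least 1 count in all 12 libraries, 24 in 11, 9 in 10, 7 in 9 and 5 in 8, and miR-7079-5p in 4. Detection in every library held for 77.0% of the members, 66.3% of the other 5p arms and 61.5% of all other miRNAs. It held for 34.5% of the 3p arms of the same range. Single T cell libraries detected 165 to 200 members (190.3 ± 14.0, SD, n = 6) and single medium libraries 183 to 198 (194.5 ± 5.86, SD, n = 6). All 200 members were present in T cells 5 and T cells 6, and the groups overlapped. T cells 2, the deepest library, detected the fewest, 165 members. It held 35 of the 91 zeros among 2400 member values and medium 3 held 6. There were 179 members with a count in every one of the other 10 libraries at once. The difference in means of 4.17 fewer members with T cells turned to 0.90 more without T cells 2. A count of 0 allows up to 3 counts, or 24.8 to 50 CPM depending on the library, and in T cells 2 and medium 3 a 0 may also stand for up to 9 counts. Such limits cover counting error only.

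Few libraries held counts of miR-7079-5p and of the 5 members detected in 8 libraries, of which the 2 with the lowest total counts are described here with it. miR-7079-5p (aGGGCUGAggcagugaguccug), from an intron of the ribosomal protein gene Rpl13 at chr8:123104975-123105043, had counts in T cells 2, 5 and 6 (151, 219 and 42.2 CPM) and in medium 3 (156 CPM). miR-6945-5p (uCCUGGGAggggcagccccugg), from Pdlim7, was detected in 8 libraries and reached 152 CPM in the T cell and 203 CPM in the medium group. miR-7042-5p was also detected in 8 libraries, at up to 177 and 157 CPM. In each of the 3, the groups overlapped.

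Levels within the class were even. The median member stood at 305 CPM (counts relative to the TMM-scaled library size, mean of 12 libraries). This median was 284 CPM for the other 5p arms, 254 CPM for all other miRNAs and 150.1 CPM for the 3p arms of the same range. From the 10th to the 90th percentile the members ran from 160 to 679 CPM, a ratio of 4.23. This ratio was 6.81 for the other 5p arms and 7.88 for all other miRNAs. The lowest member averaged 47.4 CPM and the highest 2364 CPM, and 4 members were above 1000 CPM. The top member held 3.16% and the top 8 together 12.4% of the summed level of the class. In counts these levels are small, since the median member had 16.5 to 38 counts in a library. The coefficient of variation within groups (pooled SD of the groups over the mean of 12 libraries) had a median of 38.4% over the members.

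**Figure D2:**
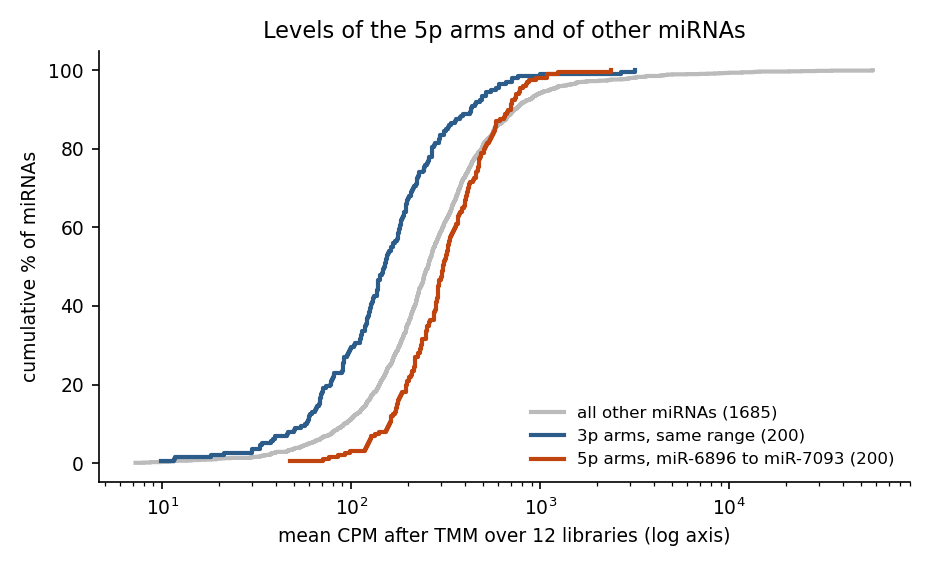
Cumulative percent of miRNAs (y axis) by mean CPM after TMM over 12 libraries (x axis, log scale) for the 200 members, the 200 3p arms of the same range and all 1685 other miRNAs of the table. The member curve is the steepest, between 47.4 and 2364 CPM with a median of 305 CPM, and the curve of the other miRNAs runs on to 57532 CPM.

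miR-6941-5p was the most abundant member in the mean. It ran from 1976 to 2780 CPM with T cells (median 2331) and from 1902 to 3137 CPM with medium (median 2262), between 131 and 277 counts. The groups overlapped fully, with means of 2392 ± 306 and 2336 ± 465 CPM (SD, 6 libraries each), and the log2 fold change of T cells over medium was 0.03 (SE 0.22, edgeR adjusted p = 0.990). By mean level it ranked 44 among all features of the table.

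The members that followed it lay close to each other. miR-6960-5p averaged 1323 ± 338 CPM in T cell and 1177 ± 352 CPM in medium libraries, miR-7018-5p 1159 ± 153 and 1013 ± 251 CPM, and miR-6927-5p 959 ± 231 and 1207 ± 249 CPM (SD, 6 libraries each). In miR-6960-5p, T cells 3 and medium 3 were the highest libraries of their groups, at 1757 and 1850 CPM. miR-7033-5p, miR-7001-5p, miR-6938-5p and miR-6936-5p averaged 783 to 927 CPM in the T cell and 811 to 1039 CPM in the medium group. The ranges of both groups overlapped in all 8, their log2 fold changes lay between −0.33 and 0.20, and among the last 7 the ranges of neighbours in this order overlapped within each group. miR-6941-5p stood above them in all 12 libraries.

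The class took a smaller mean share of the counts with T cells. Single T cell libraries 1 to 6 gave the 200 members 6.71%, 3.86%, 6.17%, 7.21%, 5.82% and 9.03% of their counts, and medium libraries 1 to 6 gave 7.20%, 8.18%, 8.37%, 8.14%, 9.87% and 10.3%. The highest T cell library, T cells 6, lay above 4 of the 6 medium libraries, and the lowest medium library below 2 of the 6 T cell libraries, so the groups overlapped. The means were 6.47% ± 1.70 and 8.68% ± 1.17 (SD, 6 libraries each), a difference of −2.21 percentage points. The difference was −1.74 points when the 10 most abundant features were left out of each library, with shares of 8.78% ± 1.38 and 10.5% ± 0.751 (SD, 6 libraries each). A share falls where another share rises. The 10 most abundant features averaged 27.4% ± 8.48 of the counts in T cell and 17.8% ± 5.23 in medium libraries. The other 5p arms averaged 47.6% ± 6.90 and 39.8% ± 3.77 (SD, 6 libraries each), and the groups overlapped in both. Red blood cell miRNAs had their highest share in T cells 2 (22.5%), and medium 1 (13.1%) lay above every other T cell library. Whether any of these shares accounts for the lower share of the class was not tested.

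The 3p arms of the same hairpins took 4.02% ± 0.965 of the counts in T cell and 4.79% ± 0.526 in medium libraries (SD, 6 libraries each). Of the summed counts of both arms the 5p arm held 59.8% to 63.6% with T cells (61.6% ± 1.51) and 62.6% to 66.5% with medium (64.4% ± 1.55, SD, 6 libraries each), which overlapped in 2 T cell and 2 medium libraries. The difference of −2.82 points was −0.998 when each hairpin counted alike (median over hairpins, 67.9% and 68.9%). Over all 12 libraries the 5p arm had the higher mean in 152 of 200 hairpins, was at least 2-fold above the 3p arm in 104, and at least 2-fold below it in 13.

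**Figure D3:**
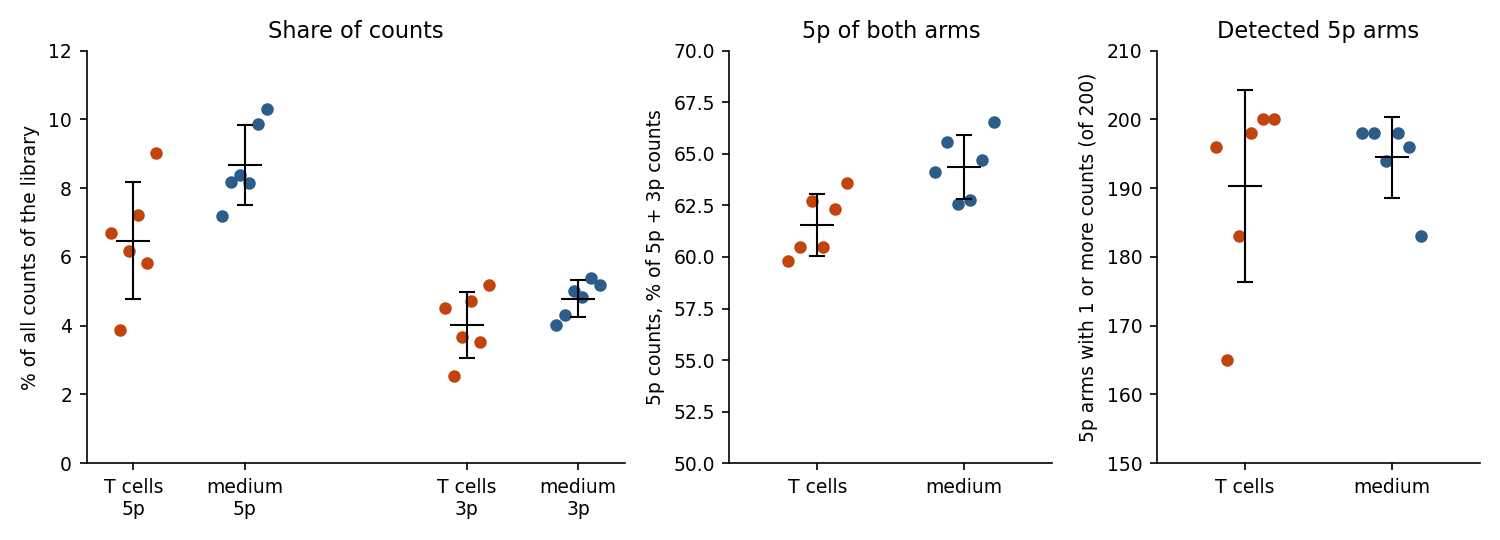
Each point is 1 library, with the mean and SD of 6 libraries per group: left, percent of all counts of the library in the 200 5p arms and in the 200 3p arms of the same range; middle, 5p counts as percent of 5p plus 3p counts (y axis from 50 to 70); right, number of the 200 5p arms with 1 or more counts (y axis from 150 to 210). The 5p share averaged 6.47% in T cell and 8.68% in medium libraries with overlapping points, and T cells 2 is the lowest library in the left and right panels.

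Which single members differed between mice given T cells and mice given medium was tested with edgeR over the whole table. Of the 200 members 196 had enough counts to be tested. None passed an adjusted p of 0.05 (lowest adjusted p = 0.370), and edgeR called 0% of all 1720 tested features. At an unadjusted p under 0.05, 2 members were higher and 6 lower, where 5.06% of all tested features were higher and 1.92% lower. DESeq2, the tool named in the methods, gave 72 members an adjusted p and called 0 of them higher, where 7.13% of the features with an adjusted p were higher, and 1 lower, where 0.713% were lower. limma voom called 0 members and 0 of all features. At an unadjusted p under 0.05 it had 7 of 196 members and 119 of all 1720 tested features. In no member did the 6 T cell and 6 medium libraries separate without overlap, which 0.291% of all tested features did.

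Over the tested members the median log2 fold change was −0.13, with 126 negative and 70 positive values. Over all tested features the median was −0.05, over the 3p arms of the same range 0.06 and over the other 5p arms −0.01. The members thus had 64.3% negative values and all features 54.8%. The quartiles of the members were −0.34 and 0.11. Under scaling by library totals alone, the median of all features moved to −0.38 and that of the members to −0.45, with 91.3% of the members negative against 80.7% of all features. The members stood 0.08 below all features in the median with TMM and 0.06 below with library totals.

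**Figure D4:**
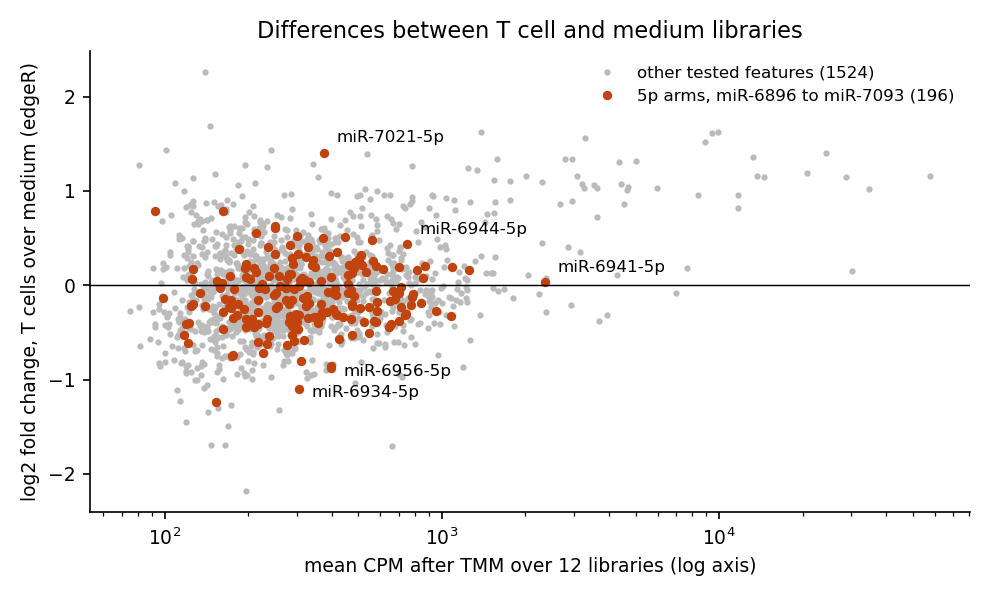
Log2 fold change of T cells over medium from edgeR (y axis) against mean CPM after TMM over 12 libraries (x axis, log scale), with 1 point per tested feature: 196 members in colour and 1524 other features in grey. The members fill the middle of the range, with a median log2 fold change of −0.13, and no member is above 2364 CPM in the mean.

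miR-6956-5p was the member with the lowest p. It comes from an intron of 77 bases of Triobp, an actin-binding protein gene, at chr15:79002223-79002284 on the plus strand, and its hairpin ends at the 3′ splice site. With T cells it ran from 134 to 388 CPM (median 285) and with medium from 261 to 729 CPM (median 536). T cells 1 was the lowest library and medium 3 the highest, 2 T cell libraries lay below the lowest medium library, medium 2, and the other 4 overlapped with the medium group. The means were 283 ± 90.8 and 515 ± 179 CPM (SD, 6 libraries each) and the log2 fold change was −0.87 (SE 0.30), with an edgeR adjusted p = 0.370 and a DESeq2 adjusted p = 0.0448. DESeq2 no longer called it without its filters (adjusted p = 0.129). With each of the 12 libraries left out in turn DESeq2 gave it an adjusted p in 6 cases and called it in 1, without medium 2 (adjusted p = 0.0154). Its 3p arm, at 291 CPM in the mean, had a log2 fold change of 0.06 (SE 0.32).

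The 4 members with the next lowest p among the negative fold changes did not pass the test either. miR-6985-5p, from an intron of 90 bases of the cofilin phosphatase gene Ssh3, ran from 202 to 464 CPM with T cells (median 350) and from 423 to 595 CPM with medium (median 522). In 5 of 6 T cell libraries it lay below the lowest medium library, and T cells 4 was the exception; the log2 fold change was −0.57 (SE 0.24, edgeR adjusted p = 0.617). miR-6976-5p, from the gene of the transcription factor SRF, ran from 354 to 531 CPM with T cells (median 456) and from 450.0 to 737 CPM with medium (median 679), a log2 fold change of −0.50 (SE 0.21, edgeR adjusted p = 0.619). Only medium 2 overlapped with the T cell libraries, and the other 5 medium libraries were above all of them.

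miR-6921-5p lies in Srebf1, the gene of a regulator of lipid synthesis, which also hosts miR-6922. It ran from 68.6 to 427 CPM with T cells (median 218) and from 329 to 585 CPM with medium (median 360). All T cell libraries but T cells 1 were below the lowest medium library, with a log2 fold change of −0.81 (SE 0.35, edgeR adjusted p = 0.630). miR-6934-5p, from Tbc1d16, was listed at 0 in T cells 2 and reached 390 CPM with T cells (median 194), against 203 to 706 CPM with medium (median 416). Its log2 fold change was −1.10 (SE 0.50, edgeR adjusted p = 0.673), and −0.80 without T cells 2 and medium 3. In 4 of 6 T cell libraries it lay below the lowest medium library. The sixth member with an unadjusted p under 0.05 and a negative fold change, miR-7052-5p, lies outside the naming rule and was named after its values were seen (log2 fold change −0.71, SE 0.34, edgeR adjusted p = 0.695).

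Of the higher members miR-6944-5p was the most even. Its hairpin fills an intron of 96 bases of Dbn1, the gene of the actin-binding protein drebrin, at chr13:55477681-55477776. It ran from 717 to 1095 CPM with T cells (median 841) and from 477 to 729 CPM with medium (median 665). Of the T cell libraries 5 were above the highest medium library, medium 3, and T cells 6 was just below it. The means were 862 ± 140 and 634 ± 102 CPM (SD, 6 libraries each). The log2 fold change was 0.44 (SE 0.21, edgeR adjusted p = 0.702, DESeq2 adjusted p = 0.212).

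miR-7021-5p had the largest positive value of the class, a log2 fold change of 1.41 (SE 0.65, edgeR adjusted p = 0.673), and it rested on 1 library. T cells 3 stood at 2320 CPM, the other 5 T cell libraries at 140 to 245 CPM and the medium libraries at 58.1 to 358 CPM (median 222). Without T cells 3 the log2 fold change was −0.06. Its host is Prdm2, the gene of a zinc finger methyltransferase.

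miR-6937-5p, from Adi1, a gene of methionine salvage, averaged 652 ± 189 CPM in T cell and 465 ± 102 CPM in medium libraries, with 4 T cell libraries above the highest medium library. miR-7057-5p, from the kinase gene Lrrk1, averaged 526 ± 159 and 367 ± 105 CPM. miR-6930-5p, from the mitochondrial carrier gene Slc25a39, averaged 439 ± 172 and 306 ± 51.3 CPM (SD, 6 libraries each). Their groups overlapped, with log2 fold changes of 0.48, 0.51 and 0.51 and adjusted p-values from edgeR of 0.812 to 0.884.

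**Figure D5:**
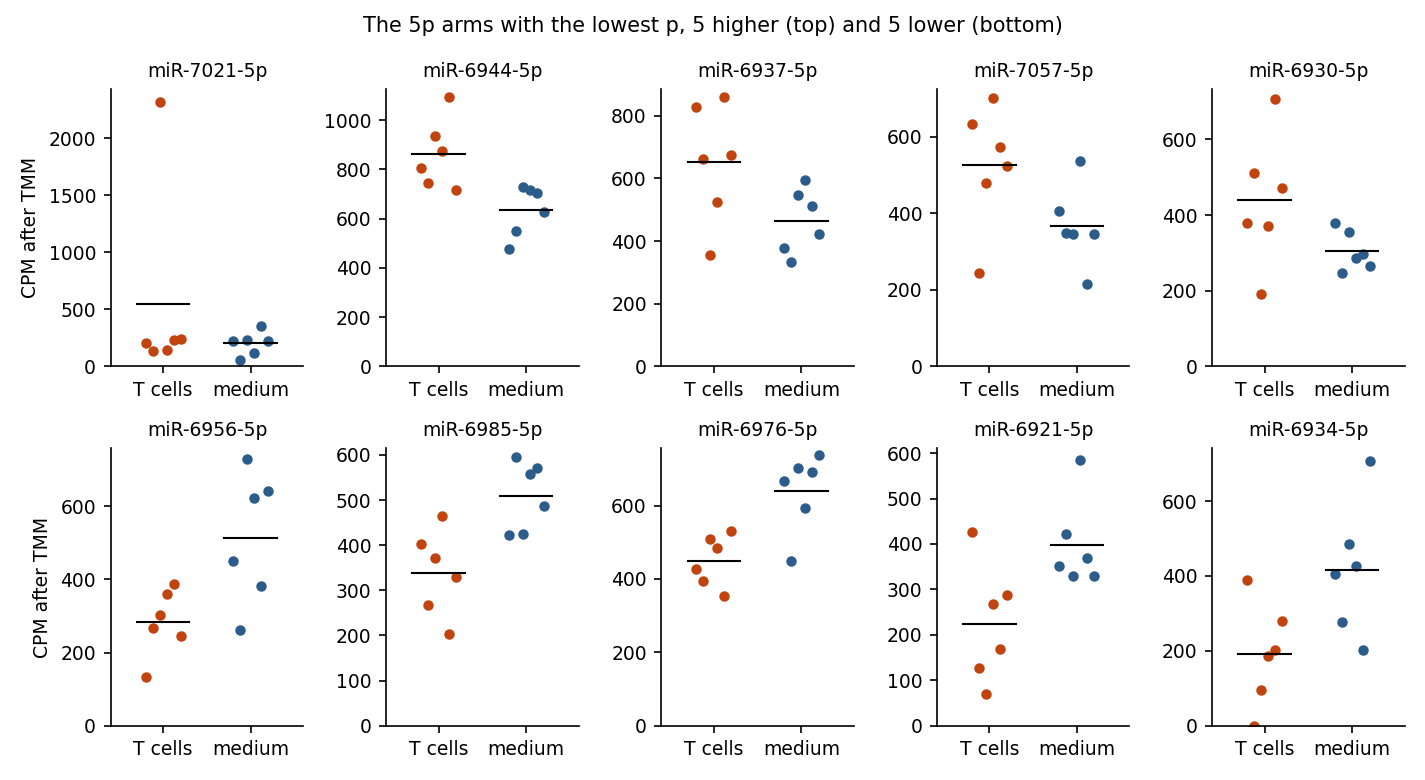
CPM after TMM (y axis from 0, a scale of its own in each panel) of the 5 members with the lowest p among those with a positive fold change (top) and the 5 among those with a negative one (bottom); each point is 1 library and each line the mean of 6. No panel separates the groups fully, and the mean of miR-7021-5p with T cells follows the 1 library at 2320 CPM.

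Seeds were mostly private to 1 member. The 176 sequences held 155 distinct seeds, of which 18 were shared by at least 2 members, 39 members in all. The seed GGGCUGA was common to miR-6911-5p, miR-7028-5p and miR-7079-5p, GGGGAGG to miR-7030-5p, miR-7075-5p and miR-7076-5p, and GUGGGAG to miR-6922-5p, miR-6993-5p and miR-7008-5p. Members with a common seed had fold changes of 1 sign in some cases and of both signs in others. Of the GGGCUGA members 2 were tested, with log2 fold changes of −0.62 and −0.37. Those of the GGGGAGG members were −0.06, −0.38 and 0.33, and those of the GUGGGAG members 0.25, 0.31 and −0.25, none past the test. miR-6941-5p and miR-7024-5p shared UGGGGGA, with log2 fold changes of 0.03 and 0.01. Of the 155 seeds 27 also occurred in other miRNAs of the table. miR-6921-5p had the seed GAGGGGC of miR-423-5p.

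Within the class guanine content showed little relation to level or difference. Across members the Pearson correlation of guanine content with log2 CPM was 0.05 (n = 176) and with the log2 fold change −0.05 (n = 173), over points that share the same 12 libraries. Split by guanine content into 3 sets of like size, the median log2 fold change was −0.09 in the lowest set, −0.20 in the middle set and −0.06 in the highest. By position, the members with the 3p arm at the 3′ splice site had a median of −0.13 (139 tested), those with both arms at splice sites 0.09 (9 tested), and those with the 5p arm alone at the 5′ splice site −0.25 (4 tested).

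Since the mice differed in donor T cells, 7 members were picked by hand for a host gene known from immune cells, after the positions had been listed and outside the rule for named members. They are examples and not a full list of such hosts. Those in lymphocyte genes were the following, shown for their hosts Lat, a T cell receptor adaptor, and Lta and Ltb, the lymphotoxins.
miR-7058-5p (Lat): uAGAGGGGaggugaccguggaagu
miR-6974-5p (Lta): gUGAGGCAgcaagagauugggggu
miR-6973a-5p (Ltb): uACGGUGGgagggguggaguug

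miR-7058-5p, at chr7:126367971-126368045 in an intron of 75 bases, averaged 335 ± 104 CPM in T cell and 330.3 ± 78.4 CPM in medium libraries (SD, 6 libraries each). miR-6974-5p, which fills an intron of 83 bases of Lta at chr17:35204475-35204557, averaged 411 ± 124 and 386 ± 95.9 CPM. miR-6973a-5p, at chr17:35194972-35195049, averaged 272 ± 67.6 and 306 ± 141 CPM. All 3 were detected in every library of both groups, also in those of mice without donor T cells, and their ranges overlapped, with log2 fold changes of 0.03 (SE 0.28), 0.09 (SE 0.26) and −0.16 (SE 0.32). miR-7086-5p in Il10ra, the interleukin-10 receptor, averaged 651 ± 233 and 573 ± 129 CPM. miR-7072-5p in Nlrc5, a regulator of MHC class I genes, was detected in 8 libraries. miR-7007-5p and miR-6949-5p, in the mast cell and basophil protease genes Cpa3 and Mcpt8, averaged 235 ± 81.1 and 299 ± 128 CPM in the T cell group, and 280 ± 141 and 350 ± 182 CPM in the medium group. Other members sit in genes that immune cells also use, with log2 fold changes of 0.79 (SE 0.75) for miR-6961-5p in Bin2, −0.58 (SE 0.48) for miR-6924-5p in Acap1 and −0.52 (SE 0.30) for miR-7011-5p in Sema4a. These were picked outside both the naming rule and the 7 members above, as examples and not a full list. The values of the 7 members lay closer together, between −0.23 and 0.17. None of the members named here passed the test.

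The class can be set beside miRNAs long known as classical mirtrons or as independent of Drosha, of which 13 arms were in the table and 12 tested. Their median level was 349 CPM and their median log2 fold change −0.14, with 10 negative values and 0 at an unadjusted p under 0.05. miR-877-3p, a classical mirtron, averaged 365 ± 166 CPM in T cell and 334 ± 121 CPM in medium libraries, and miR-1224-5p 887 ± 241 and 943 ± 210 CPM (SD, 6 libraries each). miR-484, which is made without Drosha, averaged 1088 ± 211 and 1233 ± 397 CPM. The 5p arms of miR-6896 to miR-7093 had medians of 305 CPM and −0.13, near those of this list, which mixes 5p and 3p arms. The other 5p arms of the table had medians of 284 CPM and −0.01. In other summaries the list and the members differed. The ratio of the 90th to the 10th percentile was 8.13 in the list and 4.23 in the members, and 83.3% and 64.3% of the fold changes were negative. None of this was tested.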

How the data were processed

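The members, lists and tests were chosen with earlier results of these data known. Per the submitters' processing notes, bases were called with bcl2fastq 2.18.0.12. In Qiagen GeneGlobe the authors trimmed adapters, read out the UMIs and mapped the reads to miRBase version 21 and mm10. They deposited whole-number counts per miRNA and piRNA, not normalized, and whether a count is a read or a UMI is not given in the sources used here.

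The counts of the whole table were filtered (filterByExpr by group), scaled by TMM and tested in edgeR 4.0.16 (R 4.3.3) by quasi-likelihood. Adjusted p-values are Benjamini-Hochberg values over every tested feature, and the threshold was 0.05. DESeq2 1.42.0 and limma 3.58.1 (voom) were alternatives, besides other scalings, filters, a replicate block and each library left out. The procedure was tested on simulated data. Shares, medians and overlaps are descriptions without a test. CPM values are after TMM.

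Named members were the 8 with the highest mean CPM, the 5 with the lowest edgeR p in each direction, any with a DESeq2 adjusted p under 0.05, any whose groups did not overlap, and the 3 detected in the fewest libraries (ties by lower total count). Mature sequences came from RefSeq (GRCm38.p6), and hairpins were placed against GENCODE vM21 introns, an arm being at a splice site within 2 bases. No member sequence was within 2 mismatches of another miRNA of the table. Tables were made with Python 3.11.15 and pandas 2.3.3.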

Additional observations from a re-analysis of the deposited data

Results flagged for a closer look

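Of 48 groups of 6 libraries checked for a library far from its group, 6 were flagged, where chance flags about 1 in 20. The flagged members had been named for a low p, a high level or few detections. The number flagged therefore cannot be read as an excess over that rate. miR-7021-5p stood at 2320 CPM in T cells 3, where the next T cell library had 245 CPM. miR-6960-5p stood at 1850 CPM in medium 3 (next 1216 CPM), miR-7001-5p at 1286 CPM in medium 6 (next 822 CPM) and miR-6921-5p at 585 CPM in medium 4 (next 421 CPM). miR-7079-5p stood at 156 CPM in medium 3, the only medium library in which it had a count. Medium 6, the library with the fewest counts, detected 183 members, where the next lowest medium library detected 194.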

How the results depend on the processing

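The count of called members, 0 in edgeR, was 1 in DESeq2, and 0 in DESeq2 without its filters or with its filter tuned to 0.05. It ranged from 0 to 1 when DESeq2 was run without each library in turn, with 1 only without medium 2. Both the filter tuned to 0.05 and these left-out libraries in DESeq2 were chosen after seeing the data. The call of DESeq2 was miR-6956-5p (log2 fold change −0.90, adjusted p = 0.0448). edgeR called 0 members under every other scaling, filter and left-out library run. At an unadjusted p under 0.05 it had 8 members with TMM and 27 with library totals, where all features had 120 and 177. The median log2 fold change of the members, −0.13, was −0.45 with library totals and −0.24 with at least 50 counts in 6 libraries, which left 34 members, and it ranged from −0.18 to −0.08 without single libraries. The difference in the 5p share of both arms, −2.82 points, was −0.998 as a median over hairpins and ranged from −3.22 to −2.38 without single libraries. The difference in share of counts, −2.21 points, ranged from −2.72 to −1.69, and that in detected members, −4.17, from −6.47 to 0.90, positive only without T cells 2 among these. The cause of these shifts was not tested.

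Of 18 named members with a fold change, 7 changed sign in at least 1 setting, none of them past the test. With library totals miR-6941-5p was at −0.34, miR-6960-5p at −0.16, miR-7018-5p at −0.17, miR-7001-5p at −0.15 and miR-6938-5p at −0.25. With at least 50 counts in 6 libraries miR-6941-5p was at −0.11 and miR-6938-5p at −0.059. Without the 2 libraries that hold no count from 1 to 9, miR-6941-5p was at −0.023. Without single libraries miR-6941-5p ranged from −0.017 to 0.14, miR-6938-5p from −0.011 to 0.21, miR-6936-5p from −0.31 to 0.030 and miR-7021-5p from −0.063 to 1.64.

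The replicate block, with the replicate number as a term, gave a median log2 fold change of −0.16 and called 0 members. Same-numbered libraries did not deviate together (correlations from −0.31 to 0.08), and 1 of 6 T cell libraries correlated best with its own number. The labels do not say whether the numbers pair the libraries, and these correlations cannot exclude a pairing. Depth limits single members, since the median member had 16.5 to 38 counts in a library. Spread between libraries beyond counting error limits them too. The biological coefficient of variation from edgeR was 0.472 in common over all tested features.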

Other observations

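Some mature sequences of the class also stand in longer annotated RNAs. Of 176 members with a sequence, 25 matched an annotated transcript other than a miRNA exactly (GENCODE vM21), 24 of them a transcript of their own host gene, often one that keeps the intron, as for miR-7058-5p in Lat and miR-6936-5p in Sirt7. miR-6912-5p matched Scamp4. For these members, counts of mature miRNA and of fragments of such transcripts cannot be told apart in the table.

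Some genes host more than 1 member. Srebf1 hosts miR-6921-5p (log2 fold change −0.81, SE 0.35) and miR-6922-5p (0.25, SE 0.29), Ankrd52 hosts miR-6914-5p (−0.41) and miR-6915-5p (−0.08), and Cmip hosts miR-7077-5p (−0.36) and miR-7078-5p (0.01). None of these passed the test.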
